A study of Mus musculus with 4 samples.

Results

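The genes described here are the ATP-binding cassette (ABC) genes of mouse small-intestinal organoids, apart from the sterol exporters. They were chosen by gene symbol, as all genes of subfamilies A to G except Abca1, Abcg1, Abcg5, Abcg8 and Abcc3. The annotation held 50 such symbols, of which 45 are members and 5 were left out, among 30284 genes in all. The libraries came from 2 male C57BL/6J mice, 9 weeks old by a label that ties the age to the start of a DSS experiment, and the labels name no allele or transgene. Small-intestinal crypts of each mouse were seeded in Matrigel and kept for 6 h, with DMSO as the vehicle control or with GW3965 at 2 µM. GW3965 is a small molecule that activates the liver X receptors (LXR). With 1 library per mouse and treatment, n was 2 in each group. The p-values rest on the spread between these few cultures, pooled in large part over genes. The question for the family is how far the response to GW3965 reaches beyond the sterol exporters.

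ABC proteins bind and hydrolyse ATP, and most of them use it to move a substrate across a membrane. In the gut, P-glycoprotein, MRP2 and BCRP sit in the apical membrane of enterocytes and return drugs, toxins and conjugates to the lumen, while other members work in mitochondria, peroxisomes and lysosomes, and subfamilies E and F act on ribosomes and do not span a membrane. LXR are nuclear receptors for oxidised sterols, which bind DNA together with the retinoid X receptor and are known for raising the genes of sterol efflux.

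The libraries held 16572359 to 19486547 estimated counts, and 28093 to 36458 of these fell on the 45 members. Intestinal epithelial genes were abundant, as the tissue label says: all 14 listed markers had counts in every library, with a summed level of 7448 to 8986 TPM (a level corrected for transcript length and library size). Of 10 leukocyte markers, 8 to 10 had counts in a library, and they summed to 22.3 and 27.6 TPM with DMSO and to 41.9 and 24.6 TPM with GW3965, in mouse 1 and mouse 2 respectively. The GW3965 library of mouse 1 stood apart, with 14.0% of its gene counts from the mitochondrial genome against 7.60 to 9.43% in the others. Where leaving it out turned the sign of any of 22 named and tested members, that value stands beside the gene or in the closing section. Members named outside these 22 are given without that value.

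Of the 45 members, 13 had a mean of at least 10 TPM in the DMSO cultures, 10 lay between 1 and 10 TPM and 22 lay under 1 TPM. The 8 most abundant members held 75.5 to 79.2% of the family's TPM in each library. A total of 29 members passed the filter on low counts and were tested, and the other 16 had at most 11.2 counts in any library. Abca9, Abca13, Abca17 and Abcb5 had 0 counts in all 4 libraries. A count of 0 allows up to 3 counts, which is 0.155 to 0.183 CPM (counts scaled to library size, not to gene length) depending on the library, for counting error alone.

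**Figure D1:**
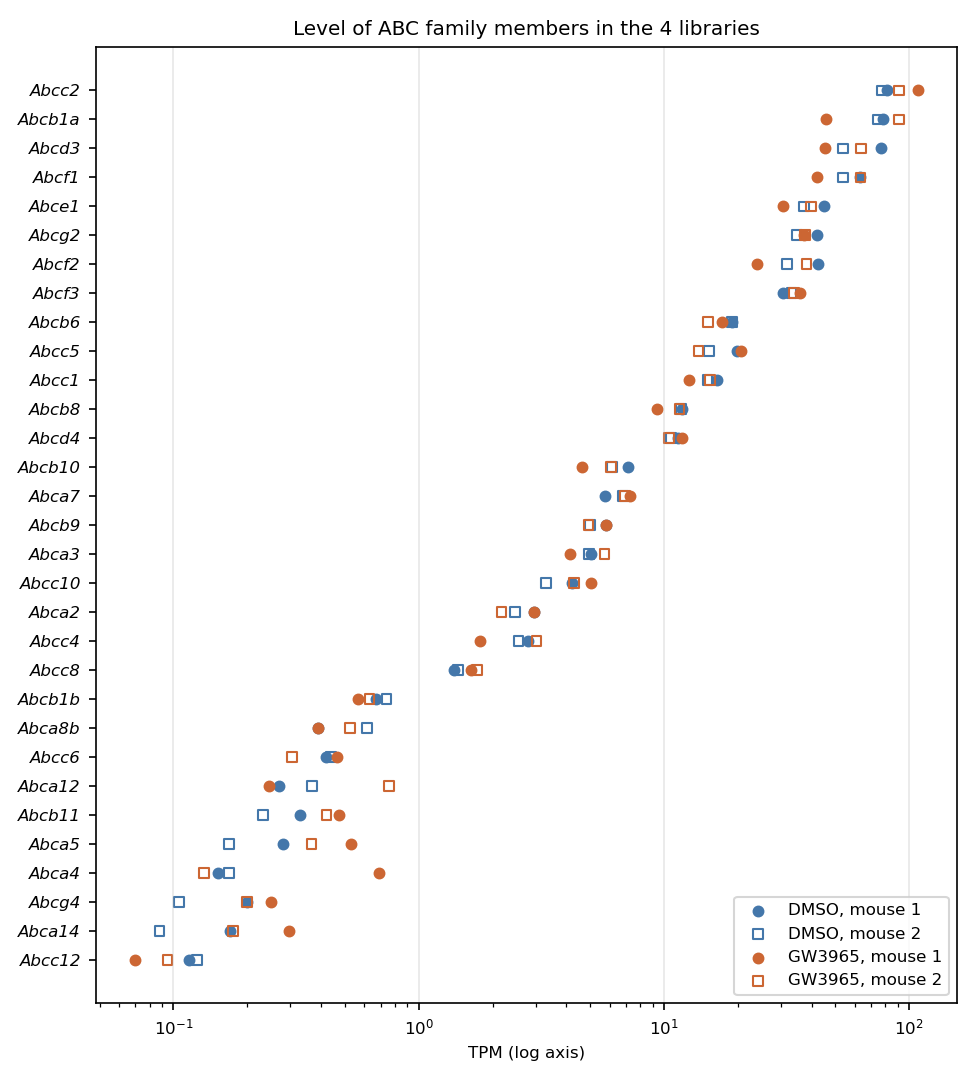
TPM summed over a gene's transcripts, on a log axis, for 31 members with a mean of at least 0.1 TPM in the DMSO cultures. Each row is a gene, each point a library (blue DMSO, orange GW3965, filled circles mouse 1, open squares mouse 2). Abcc2 and Abcb1a are highest, and the points of both treatments intermingle in most rows.

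GW3965 raised the sterol exporters and left every tested member of the remaining family short of the threshold. Abcg1, left out by the rule, went from 1.39 and 1.27 to 25.7 and 28.7 normalised CPM, mouse 1 before mouse 2. Abcg8 went from 32.3 and 29.2 to 115 and 131 CPM in the same order. Of the 29 tested members, 0 passed an adjusted p of 0.05 in edgeR's quasi-likelihood test, each with an adjusted p of 0.99986, and 0 had an unadjusted p under 0.05. Over all 13602 genes tested, 8 (0.0588%) passed the adjusted threshold and 1.05% had an unadjusted p under 0.05, so a count of 0 among 29 genes lies at the background. DESeq2 and limma-voom also called 0 members, while each called 0.147% of all genes. Members called were also 0 with the mouse as a block (0.353% of all genes). Leaving out 1 library also gave 0 members, with 0.27% or 0.383% of all genes called when DMSO of mouse 1 or mouse 2 was omitted, and 0.389% or 0.595% when GW3965 of mouse 1 or mouse 2 was. Of the 5 genes left out, 4 were called (Abca1, Abcg1, Abcg5 and Abcg8). They were set apart with that result known, so the contrast is partly fixed by the choice. The call of Abcg5 was lost without the DMSO library of mouse 2.

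The intervals say which sizes of change the data leave room for. The median log2 fold change of the tested members was 0.03, against 0.00 for all genes tested, with 15 positive and 14 negative. The largest value was 0.62, for Abca5. In 26 of 29 members the 95% interval lay inside a 2-fold change in either direction (77% of all genes tested), and the other 3, Abca5, Abcb11 and Abca12, reached upper bounds of 1.48 to 1.52. That count dropped to 17 when mouse 1's DMSO library was left out, and to 12 when mouse 2's was. The lower bounds of the 4 raised exporters were 1.52 for Abcg5, 1.56 for Abcg8, 3.79 for Abcg1 and 4.58 for Abca1. Abcc3, a basolateral exporter of conjugates and bile salts that the rule also left out, had a log2 fold change of 0.00 (interval -0.50 to 0.50). Differences between the changes of members and exporters were not tested.

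**Figure D2:**
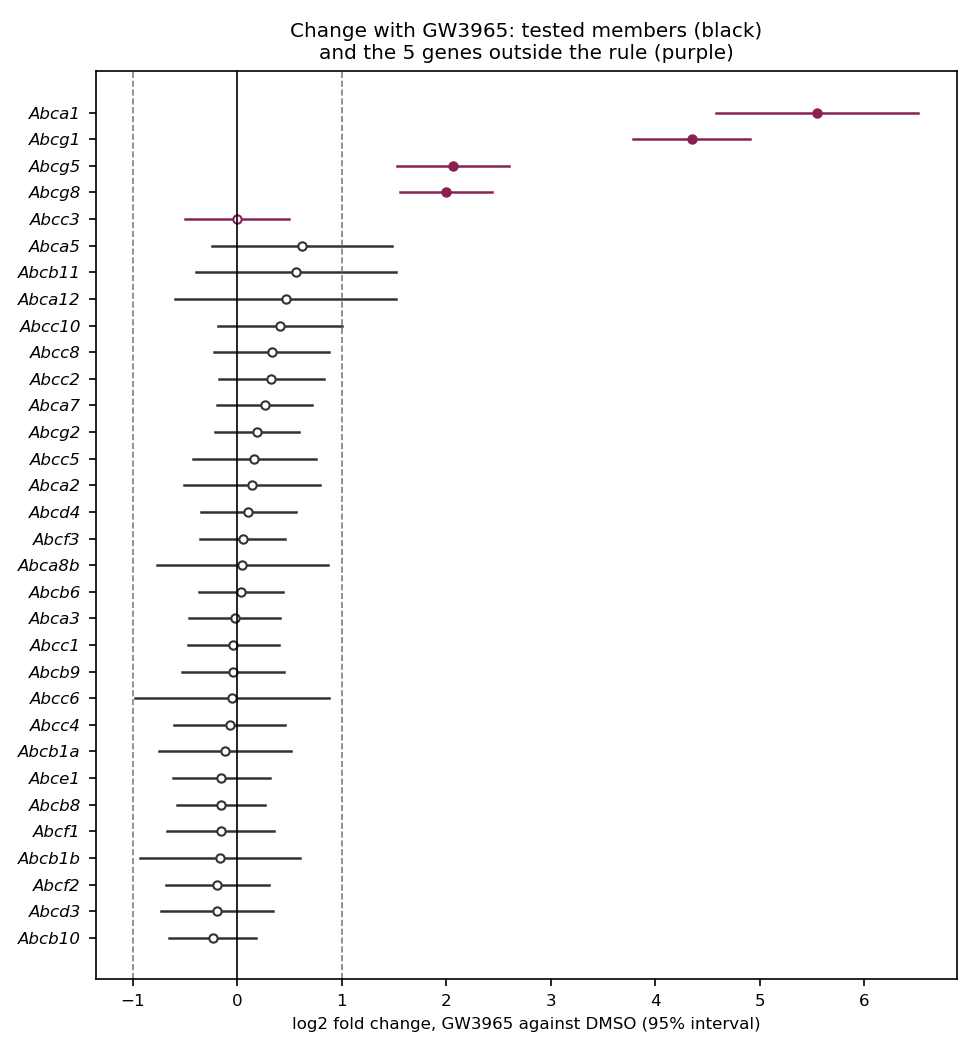
Log2 fold change with GW3965 (points) and 95% interval (lines) for 27 of the tested members in black and the 5 genes outside the rule in purple. Filled points passed the adjusted threshold, and dashed lines mark a 2-fold change. Only Abca1, Abcg1, Abcg5 and Abcg8 have filled points, and the intervals of 24 of the members drawn lie between the dashed lines.

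Promoter sequence is shown for 2 exporters raised by GW3965 (Abca1 and Abcg5) and for 2 abundant members that did not pass the test (Abcg2 and Abcd3), since the comparison turns on which genes of the family answer to the receptor. The sequences are from RefSeq on GRCm38.p6 and give the 120 bases before the start site. Capitals mark a match to the LXR element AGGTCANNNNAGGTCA, searched on both strands, with up to 3 of its 12 fixed letters differing.
Abca1: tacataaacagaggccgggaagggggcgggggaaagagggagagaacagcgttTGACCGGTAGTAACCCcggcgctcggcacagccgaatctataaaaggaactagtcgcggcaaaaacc
Abcg5: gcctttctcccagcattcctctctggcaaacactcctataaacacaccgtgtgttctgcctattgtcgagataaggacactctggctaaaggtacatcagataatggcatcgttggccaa
Abcg2: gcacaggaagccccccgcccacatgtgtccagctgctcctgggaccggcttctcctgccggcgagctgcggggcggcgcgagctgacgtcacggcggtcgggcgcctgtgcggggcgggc
Abcd3: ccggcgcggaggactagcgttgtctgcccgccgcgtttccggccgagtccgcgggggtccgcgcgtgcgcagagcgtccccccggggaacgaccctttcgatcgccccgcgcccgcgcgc

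These lie at chr4:53159896-53160015 on the minus strand (Abca1), chr17:84683012-84683131 on the minus strand (Abcg5), chr6:58640426-58640545 on the plus strand (Abcg2) and chr3:121815303-121815422 on the minus strand (Abcd3). The Abcg5 stretch reaches into Abcg8, which begins there on the plus strand, and 11 of its bases are annotated exon of Abcg8. The Abca1 match is on the opposite strand of the gene, where it reads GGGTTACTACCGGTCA. Within windows of 300 bases (250 before the start and 50 after), 35 members had 41 windows in the RefSeq table. Among those, 1 window held a match (2.44%), against 21.9% of 32851 windows over all genes. With at most 2 letters differing the shares were 2.44 and 3.02%, so the gap rests on the limit chosen. Of the 4 windows of the left-out genes, only that of Abca1 held a match with up to 3 letters differing, and the 3 windows of the raised genes Abcg5 and Abcg8 held none. A match therefore did not separate raised genes from the others. The member window with a match was a second start site of Abcc10, 2257 bases from the start of the transcript with most of that gene's counts, with AGGACAGCTGAGTTCA on the opposite strand, just after that start. The absence of a match says only that these letters are not in the window.

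The drug and conjugate pumps made up the largest share of the family's RNA. Abcb1a (P-glycoprotein), Abcc2 (MRP2) and Abcg2 (BCRP) together held 34.0 to 39.2% of the members' TPM in a library. By TPM summed over a gene's transcripts, Abcc2 had the highest DMSO level, at 81.1 and 77.4 TPM in mouse 1 and mouse 2. Abcb1a followed at 78.0 and 74.4 TPM and, after 3 genes of other roles, Abcg2 at 42.2 and 34.8 TPM. The DMSO TPM of Abcc2 and Abcb1a overlapped, as 1 of 8 such cases in the 11 neighbouring pairs among the 12 most abundant members. The order of these 2 genes depended on short transcripts, which weigh more in TPM than in counts. Retained-intron transcripts of 531 to 607 bases held 4.31 and 4.17% of Abcc2's DMSO counts. The coding transcript Abcc2-201, of 8027 bases, had 5937 and 5916 counts with DMSO. Abcb1a-201, of 4997 bases, had more, at 6706 and 6513, so by these coding transcripts Abcb1a stood above Abcc2. Of the 10 genes in this group 9 were tested, with 4 positive and 5 negative and a median log2 fold change of -0.04.

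Abcc2 (chromosome 19, 43782192 to 43840740), which exports glutathione and glucuronide conjugates, had 318.7 and 327 CPM with DMSO and 413 and 397 CPM with GW3965 in mouse 1 and mouse 2. Both GW3965 libraries were above both DMSO libraries. The means were 323 ± 6.12 and 405 ± 11 CPM (SD, n = 2 per group), 1.25-fold, and the log2 fold change of 0.33 ± 0.22 (standard error) had an interval of -0.18 to 0.83. The change was positive in each of 12 other analyses, from 0.30 to 0.35, and passed in none (smallest adjusted p = 0.194, in edgeR without the GW3965 library of mouse 2).

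Abcg2, which exports sulphate conjugates and many drugs, was the other pump with both GW3965 libraries above both DMSO libraries, with 56.1 and 55.6 CPM with DMSO and 67.1 and 60.4 CPM with GW3965. Its log2 fold change was 0.19 ± 0.18, with an upper bound of 0.59, and it was 0.11 without the GW3965 library of mouse 1. The transcript Abcg2-202, which begins 18 bases from the start site shown above, carried 86.2 to 95.1% of the gene's counts. The other 2 annotated promoters in the RefSeq table lie 43892 and 56031 bases away.

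Abcb1a (chromosome 5, 8660077 to 8748575) had differences of opposite sign in the 2 mice. It had 345 and 347 CPM in the DMSO cultures of mouse 1 and mouse 2, 234 CPM with GW3965 in mouse 1 and 401 CPM with GW3965 in mouse 2. The 2 DMSO libraries were close, and the GW3965 libraries lay on either side of them. The log2 fold change of -0.12 ± 0.28 became 0.21 when the GW3965 library of mouse 1 was left out, and -0.56 when that of mouse 2 was. Over the 14 epithelial markers the differences had a median (log2) of -0.20 for mouse 1 and 0.07 for mouse 2, and 8 of them had the same pattern of signs as Abcb1a. Of all 13602 genes tested, 4481 had that pattern. Vil1 was lowest in the GW3965 library of mouse 1 (309.5 TPM against 516 to 582 in the others), while Fabp1 was highest there (1966 TPM against 1166 to 1824). Their part in the Abcb1a value was not tested.

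Abcb1b, the second P-glycoprotein gene of mice, lay far below Abcb1a. It had 0.670 and 0.739 TPM with DMSO and 0.564 and 0.631 TPM with GW3965, so that Abcb1a stood 81.2 to 144 times higher. The pair is 88.2% identical over 3816 aligned coding bases, and 25.2% of the 31-base words of Abcb1b also occur in other genes, nearly all of them in Abcb1a. Reads from such stretches can be divided wrongly between the pair, so the level of Abcb1b is uncertain. A window of 60 coding bases from the middle of the longest ungapped stretch is more alike than the pair as a whole. It is printed with capitals at the 3 positions that differ.
Abcb1a: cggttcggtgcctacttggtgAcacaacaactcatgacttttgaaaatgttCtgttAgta
Abcb1b: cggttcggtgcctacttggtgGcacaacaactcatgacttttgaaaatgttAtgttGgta

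The window covers coding bases 2860 to 2919 of Abcb1a and 2866 to 2925 of Abcb1b, counted from 1 at the start codon, in the GENCODE M21 transcripts. With GW3965 Abcb1b had 2.56 and 2.41 CPM against 2.57 and 3.02 CPM with DMSO. Its groups did not overlap, with GW3965 lower, but in mouse 1 the values nearly touched. Of all genes tested 9.18% lay below in this way. Its log2 fold change was -0.17 ± 0.34.

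Among the other exporters of conjugates and nucleotides, Abcc1 (MRP1, a glutathione-conjugate exporter of basolateral membranes) had 81.3 and 82.7 CPM with DMSO and 72.2 and 87.3 CPM with GW3965, and the groups overlapped. Abcc4 (MRP4, which exports cyclic nucleotides) had 14.2 and 13.4 CPM with DMSO and 10.7 and 15.5 CPM with GW3965. Both genes had a log2 fold change near 0, at -0.04 ± 0.19 and -0.07 ± 0.24. Abcc10 (MRP7) had 15.8 and 13.4 CPM with DMSO and 24.4 and 14.3 CPM with GW3965. Its log2 fold change of 0.41 ± 0.26 was the largest of the pumps and rested on 1 library, since it was -0.03 without the GW3965 library of mouse 1. Abcc10 shares exon sequence with Dlk2 on the other strand, and the sources do not state whether counting used the strand. Abcc6 was near 2 CPM in each group (1.96 ± 0.155 and 1.90 ± 0.758 CPM, n = 2), and Abcc12 had 3 to 8 counts and was not tested.

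Abcc5 (MRP5, an exporter of cyclic nucleotides) had most of its estimated counts outside its coding transcripts. These counts come from dividing reads among a gene's transcripts, and the error of that division was not measured. Transcripts annotated as retained intron carried 65.7 and 63.5% of its counts with DMSO and 71.6 and 72.4% with GW3965. The gene had 60.4 and 54.6 CPM with DMSO and 83.0 and 46.0 CPM with GW3965, a log2 difference of 0.46 in mouse 1 and of -0.25 in mouse 2. Its log2 fold change was 0.16 ± 0.26 over all transcripts and -0.12 over protein-coding transcripts alone.

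The share of retained-intron transcripts set the GW3965 library of mouse 1 apart within the family as well. It was 8.33% of the members' counts there, against 4.51% in that mouse with DMSO, and 4.64% with DMSO and 3.97% with GW3965 in mouse 2. Over all genes the shares were 3.83, 2.73, 2.90 and 2.51% in the same order. Of 13 members with a mean of at least 100 counts and such a transcript, 9 had their highest share in the GW3965 library of mouse 1. The same count was not made over all genes, so 9 of 13 cannot be set against a background. In Abcb6 it was 34.0% there, against 17.5, 18.8 and 6.97% in the other libraries (DMSO of mouse 1, then DMSO and GW3965 of mouse 2).

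**Figure D3:**
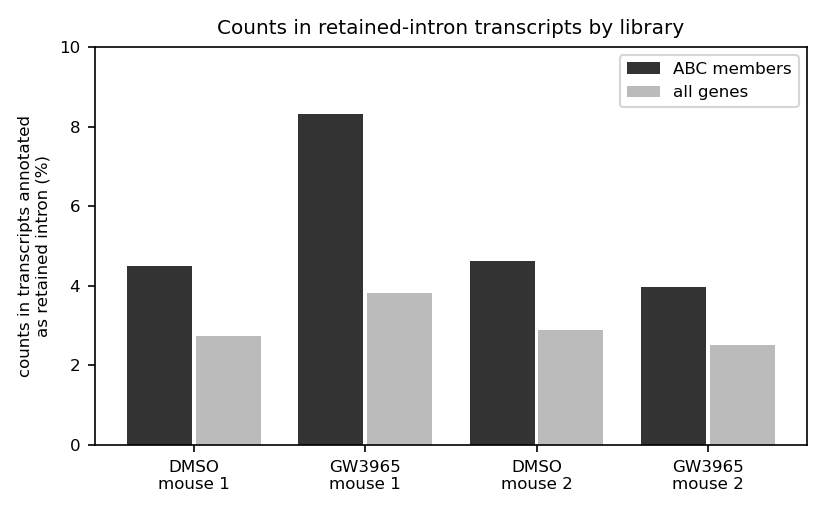
Percentage of counts in transcripts annotated as retained intron, for the 45 members (black bars) and all genes (grey bars), in each of the 4 libraries, with no error bars because each bar is 1 library. The bars of the GW3965 library of mouse 1 are the tallest of each colour, at 8.33 and 3.83%.

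Most proteins of subfamily A move lipids, and its genes were expressed at low levels. Of its 15 members 6 were tested and 3 had a mean of at least 1 TPM in the DMSO cultures. These were Abca7, a phospholipid transporter tied to phagocytosis, Abca3, known for loading surfactant lipid into lamellar bodies of the lung, and Abca2, a lysosomal sterol and lipid transporter. Abca7 had 34.5 and 43.1 CPM with DMSO and 51.6 and 41.5 CPM with GW3965, with a log2 fold change of 0.26 ± 0.20, or 0.0993 without the GW3965 library of mouse 1. Abca3 had 28.5 and 29.4 CPM with DMSO and 25.2 and 31.6 CPM with GW3965 (-0.03 ± 0.19). Abca2 had 9.35 and 7.95 CPM with DMSO and 12.1 and 7.03 CPM with GW3965 (0.14 ± 0.29). In each of these 3 genes the groups overlapped and the differences of the 2 mice had opposite signs.

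Abca5 and Abca12 had larger estimates on few counts. Abca5, a lysosomal member, had 35 and 25 counts with DMSO and 43 and 42 with GW3965, or 1.80 and 1.33 against 2.62 and 2.20 CPM. Its groups did not overlap, and its log2 fold change of 0.62 ± 0.39 had an interval of -0.24 to 1.48. Abca12, a lipid transporter of the skin barrier, had 2.00 and 2.97 CPM with DMSO and 1.83 and 4.98 CPM with GW3965. Its value of 0.46 ± 0.47 became 1.00 when mouse 1's GW3965 library was left out and -0.44 when mouse 2's was. Abca8b had a log2 fold change of 0.05 ± 0.37, and the other 9 genes of the subfamily had at most 11.1 counts in a library.

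Abcg4 and Abcd2, for which links to LXR are known from other tissues, had too few counts for the filter on low counts. Abcg4, a sterol exporter of the brain, had 4 and 2 counts with DMSO and 6 and 6 with GW3965, in mouse 1 and mouse 2. Abcd2, a peroxisomal fatty acid transporter, had 3.17 and 4.17 estimated counts with DMSO and 5.36 and 5.25 with GW3965. Without that filter both were tested in edgeR and neither passed (adjusted p = 0.997 for each). A small change in either was not detectable at this depth. A rise like that of Abca1, from 0.462 and 1.75 CPM with DMSO to 42.8 and 60.4 CPM with GW3965, was not seen in them. Abcb4, the phospholipid exporter of bile, had 0 to 3.17 counts and Abcg3 had 1 to 3. Abcb11, the bile salt export pump, had 28 and 18 counts with DMSO and 28 and 35 with GW3965, and its log2 fold change of 0.56 ± 0.43 did not pass. Its groups did not overlap in normalised CPM, with log2 differences of 0.23 in mouse 1 and 0.88 in mouse 2. In mouse 1 the counts were equal, and the GW3965 library was the smaller.

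The mitochondrial and lysosomal members of subfamily B had negative estimates in 4 of 5 genes, with a median log2 fold change of -0.15. Of all 13602 genes tested 6795 were negative, with a median of 0.00, and the gap was not tested. Abcb10, an inner-membrane transporter of haem-forming cells, had 27.2 and 24.7 CPM with DMSO and 20.9 and 23.1 CPM with GW3965. Abcb8, of the same membrane, had 19.6 and 20.4 CPM with DMSO and 17.7 and 18.2 CPM with GW3965. In this pair both GW3965 libraries lay below both DMSO libraries. Their log2 fold changes were -0.23 ± 0.19 and -0.15 ± 0.19, neither past the threshold. Abcb6, a porphyrin transporter, and Abcb9, a lysosomal peptide transporter, had 0.03 ± 0.18 and -0.04 ± 0.22.

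Over the family, both GW3965 libraries were above both DMSO libraries in 5 of 29 members (Abcc2, Abcg2, Abcc8, Abcb11 and Abca5) and below them in 4 (Abcb8, Abcb10 and Abcb1b among them). Over all genes tested 9.28% lay above and 9.18% below, against 17.2% and 13.8% of the members, a gap of a few genes that was not tested. The difference had the same sign in both mice in 10 of 29 members, or 34.5%, against 33.5% of all genes tested. In 10 members the difference was negative in mouse 1 and positive in mouse 2, and in 9 it was the reverse. Of all 13602 genes tested, 4481 and 4561 did so.

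**Figure D4:**
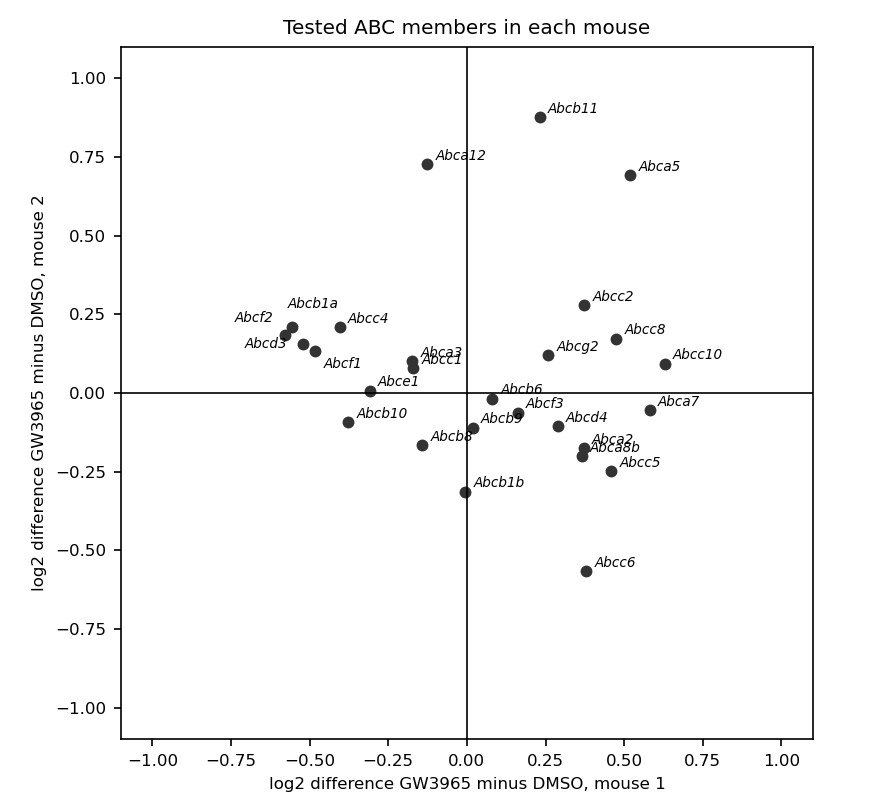
Log2 difference between GW3965 and DMSO in mouse 1 (horizontal axis) and in mouse 2 (vertical axis) for 27 of the tested members, each point a gene with 1 library per treatment and mouse. The points spread over all 4 quadrants, with 9 genes in those where the mice share a sign, among them Abcc2 and Abcg2.

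The peroxisomal members carry fatty acids for oxidation. Abcd3 (PMP70), for branched-chain and long dicarboxylic fatty acids, was the third most abundant member, with 77.1 and 53.8 TPM in the DMSO cultures of mouse 1 and mouse 2. It had 229 and 169 CPM with DMSO and 159 and 188 CPM with GW3965. The DMSO libraries differed more from each other than the group means did (199 ± 42.2 and 174 ± 20.6 CPM, n = 2). Its log2 fold change was -0.19 ± 0.24. Abcd4, which serves vitamin B12 export from lysosomes, had 0.11 ± 0.20.

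The members of subfamilies E and F were among the most abundant. Abce1, the ribosome recycling factor, had 150.4 and 132 CPM with DMSO and 121 and 133 CPM with GW3965. Abcf1, which acts in translation initiation, had 150.5 and 134 CPM with DMSO and 108 and 147 CPM with GW3965. Abcf2 followed the same order, with 94.0 and 74.0 CPM with DMSO and 62.9 and 84.2 CPM with GW3965. The lowest value of these 3 genes was the GW3965 library of mouse 1, and their log2 fold changes were -0.15 ± 0.21, -0.16 ± 0.23 and -0.19 ± 0.22. Abcf3 had 55.9 and 56.4 CPM with DMSO and 62.6 and 54.0 CPM with GW3965 (0.05 ± 0.18). Abce1 and Abcf1 share 6.17 and 4.93% of their 31-base words with other genes, most of them with Gm6640 and Gm8844.

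The sulphonylurea receptors are the regulatory subunits of ATP-sensitive potassium channels. Abcc8 (SUR1), known from endocrine cells, had 6.11 and 6.73 CPM with DMSO and 8.53 and 7.61 CPM with GW3965. Its groups did not overlap, and its log2 fold change was 0.33 ± 0.25 (interval -0.23 to 0.88). The enteroendocrine gene Chga was at 72.7 and 91.3 TPM with DMSO and 62.2 and 100.7 TPM with GW3965. Abcc9 (SUR2), known from smooth muscle and pericytes, had 4.07 and 1.01 counts with DMSO and 11.2 and 7.19 with GW3965, and lay under the filter. Without the filter it did not pass in edgeR (adjusted p = 0.997). Of 10 mesenchymal markers 9 or 10 had counts in a library, and Vim held most of their summed level of 13.9 to 16.5 TPM. The other 9 summed to 1.36 and 2.01 TPM with DMSO and 2.02 and 1.94 TPM with GW3965, and their part in the Abcc9 counts was not tested. In bulk RNA, fewer cells of a type and less RNA per cell cannot be told apart.

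Genes around the family were also short of the threshold, as were nearly all genes: of 13602 tested 8 passed (0.0588%), and 6807 were positive. Of the 3 ABC genes that carry other symbols, 0 passed: the antigen peptide transporter genes Tap1 and Tap2 were at 0.10 ± 0.20 and -0.01 ± 0.25 (log2 fold change), and the chloride channel gene Cftr was at -0.15 ± 0.21. Of 11 tested scaffold and partner genes 0 passed, with 4 positive and 7 negative. The smallest p were those of Pdzk1, a scaffold of apical transporters (0.42 ± 0.37), and Fech, the last enzyme of haem synthesis (-0.19 ± 0.19). Among 7 nuclear receptors and sensors of foreign compounds 0 passed, and the receptor genes Nr1i3 (CAR) and Hnf4a had 0.23 ± 0.28 and -0.21 ± 0.28. Both signs turned without the GW3965 library of mouse 1, to -0.30 and 0.07. Of 20 genes of drug uptake and metabolism 0 passed, with 14 positive. Slc51b and Slc51a, which form the basolateral bile salt exporter, had 0.53 ± 0.24 and 0.27 ± 0.18. Both GW3965 libraries lay above both DMSO libraries, for Slc51b at 25.3 and 16.4 against 13.8 and 15.0 CPM. Of the 20 genes 2 (10%) lay above in this way and 2 (10%) below, against 9.28% and 9.18% of all genes tested. Without the GW3965 library of mouse 1 the values of Slc51b and Slc51a were 0.19 and 0.30.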

How the data were processed

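RNA was poly-A selected, prepared with a strand-marking kit and read as single-end 50 bp, per the labels' protocols, whose extraction text speaks of colon while the tissue label and growth protocol name small-intestinal organoids. The submitters' processing notes name kallisto, FastQC (no versions), CASAVA 1.7 and the build mm10. Per the file headers, each library's deposited file gives kallisto's estimated counts and TPM by transcript. The authors' series-wide table of counts holds the same values rounded. The authors also deposited log2 CPM for 8524 genes (21 members), which were not used. Their scaling is not stated, and across 8460 genes, centred on each gene's mean, the column labelled DMSO of mouse 2 correlated at only 0.35 with that library's counts, against 0.74 to 0.88 for the other columns. It also placed Abca1 lower than the DMSO column of mouse 1 did, against the counts. The sources used here do not give the annotation release or the use of strand.

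Transcripts were matched to GENCODE M21 (86119 of 88198, 97.6%) and summed over genes. Unmatched transcripts held 0.685 to 0.854% of a library. The rounded sums entered the quasi-likelihood test of edgeR 4.0.16 (R 4.3.3, TMM scaling, filterByExpr, no block, 2 residual and 7.78 prior degrees of freedom), with Benjamini-Hochberg adjustment over 13602 genes. Standard errors and 95% intervals come from the F statistic. Differences per mouse use normalised CPM plus 0.1. Alternatives used DESeq2 1.42.0 and limma 3.58.1 among others. On simulated counts for this comparison with 13602 genes, 60% of 100 genes planted at 2-fold and 94% of 100 at 4-fold were called, with 7 false calls among 161, and 94.9% of intervals held the true value. The simulated spread followed only its trend with level, with no mouse effect and no library standing apart. These rates therefore need not hold for the real libraries. Depth intervals and limits cover counting error alone.

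Same-numbered libraries share a mouse, per the labels, and their deviations from the group means correlated at 0.0724. The labels name separate cultures of each mouse only by treatment. Named are the 12 members with the highest DMSO TPM, the 6 with the smallest p and 17 chosen by name. Others named were chosen after their values were seen. Values of some of these genes are not reported here, though counts over the family include them. The members and lists were chosen with earlier results of these data known.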

Additional observations from a re-analysis of the deposited data

How the results depend on the processing

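No member was called under any of the 12 other analyses. The smallest adjusted p of a member was 0.0836, for Abcc10 in edgeR without the GW3965 library of mouse 2, where 9 members had an unadjusted p under 0.05. The count of all genes called was 8, and it was 14 without a filter on low counts, 20 with DESeq2, 20 with limma-voom, 48 with the mouse as a replicate block, and 38 to 84 when 1 library was left out. The block, whose infinite prior leaves a gene's own spread out of its p, changed no call of a member. Abcg5 lost its call without the DMSO library of mouse 2. The members' median of 0.03 ranged from 0.0024 to 0.0965 without 1 library, and the count of intervals inside 2-fold fell from 26 to between 12 (without the DMSO library of mouse 2) and 24, fits that assume the spread of the lone library.

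Of 22 named and tested members, 9 kept their sign in all 12 analyses. Without the GW3965 library of mouse 1 the sign turned in 11. Lowest and highest log2 fold changes without 1 library were -0.40 and 0.0423 for Abcd3, -0.56 and 0.21 for Abcb1a, -0.40 and 0.0474 for Abcf1, -0.42 and 0.0024 for Abcf2, -0.0570 and 0.16 for Abcf3, -0.0343 and 0.0965 for Abcb6, -0.32 and 0.53 for Abcc5, -0.18 and 0.0912 for Abcc1, -0.20 and 0.13 for Abca3, -0.0275 and 0.74 for Abcc10, -0.30 and 0.48 for Abca2, -0.36 and 0.17 for Abcc4, and -0.44 and 1.00 for Abca12. With protein-coding transcripts alone, an analysis chosen after seeing the data, Abcb6 was at -0.0014, Abcc5 at -0.12 and Abcc1 at 0.17. The cause was not tested. Another scaling moved the median of all genes by at most 0.026. Depth limits the 16 untested members.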

Other observations

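Abcc4 has 2 annotated coding transcripts, and their shares differed between libraries. Abcc4-201 held 80.1% of the gene's counts with DMSO and 84.1% with GW3965 in mouse 1, and 19.6% with DMSO and 98.5% with GW3965 in mouse 2. The gene had 176 to 277 counts in the mouse 1 libraries and 252 to 295 in those of mouse 2. The division of single-end reads between the overlapping transcripts has an error that was not measured. In Abca7, the transcript Abca7-202 held 67.2 and 53.8% of the counts with DMSO and 57.4 and 46.0% with GW3965, in mouse 1 and mouse 2. Its share was lower with GW3965 in both mice, and the error of this division was not measured either.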
